A study of Homo sapiens with 4 samples.

Results

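The 9 genes described here build and load MHC class I: the heavy chain genes HLA-B, HLA-C, HLA-E and HLA-F, the light chain gene B2M, the peptide transporter genes TAP1 and TAP2, the tapasin gene TAPBP and the transcriptional activator gene NLRC5. They were taken by name, out of 58735 genes in each deposited table, and the set was selected on measured values, the FPKM of HLA-B, which was higher after NME7 knockdown. The members were thus chosen by the comparison between knockdown and control, and their differences in it are given as a description, with no test. RNA-seq was performed on 4 libraries of cells labelled Huh7, 2 with a control short hairpin RNA (shCtrl) and 2 with a hairpin against NME7 (shNME7). NME7 encodes a nucleoside diphosphate kinase family protein. How the hairpins were delivered, whether 1 or several sequences or clones were used, the time of harvest and whether replicates were separate cultures were not stated in the labels.

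MHC class I molecules carry short peptides from inside the cell to its surface, where cytotoxic T cells and natural killer cells read them. The proteasome cuts proteins into peptides, the TAP1 and TAP2 pair carries them into the endoplasmic reticulum, and tapasin holds an empty heavy chain and beta-2-microglobulin next to the transporter until a peptide fits. Interferons raise most of these genes together, and NLRC5 does so with the RFX, CREB and NF-Y factors that bind the SXY module of class I promoters. Hepatocytes normally show little class I, and liver cancer cells vary in it.

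The labelled cell type was not borne out by its markers. Of 9 hepatocyte and hepatoma markers, each had 10 fragments or fewer in every library and none exceeded 0.0848 FPKM (fragments scaled to exon length and library size), although Huh7 is known for abundant albumin and alpha-fetoprotein. ALB had 0, 0, 0 and 1 fragments and AFP 0, 1, 0 and 0 in shCtrl 1, shCtrl 2, shNME7 1 and shNME7 2, and APOA1, APOB, FGB and GPC3 were at 0 in all 4. The cells are therefore called by their labels only. Of 10 leukocyte markers 5 were at 0, PTPRC and CD3E among them, and their summed level was 1.20 and 1.51 FPKM in shCtrl, against 0.822 and 1.504 in shNME7, mostly from CSF1R. Endothelial markers summed to 2.03 to 2.37 FPKM in shCtrl and 2.87 to 3.54 in shNME7, mostly from CDH5 and PECAM1. CDH5 stood at 1.70 and 1.31 FPKM in shCtrl, against 1.88 and 2.67 in shNME7. PECAM1 stood at 0.559 and 0.615 against 0.909 and 0.797 FPKM. VWF and TEK were at most 0.0903 FPKM, and KDR was at 0. Fibroblast and matrix markers summed to 92.1 to 103 FPKM in shCtrl and 97.3 to 98.7 in shNME7. COL3A1, LUM, COL1A1 and PDGFRB were present, COL1A2 and DCN were at most 0.0734 FPKM, and PDGFRA was at 0. The part of such other cells in the results below was not tested. In bulk RNA, fewer cells of a type and less RNA per cell cannot be told apart.

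The libraries held 14877906 to 16991397 fragments, recovered from the FPKM values. NME7 stood at 3.64 and 3.93 FPKM in the controls, against 0.835 and 0.626 in the knockdown libraries, so the target was lower in both libraries labelled as knockdown, 5.18-fold in the mean. Its adjusted p was 0.310 in limma-trend and 0.00123 in limma-voom on recovered fragments. The group difference grew with GC content over the 12857 of 12866 tested genes with a GC value (rho 0.41, by Spearman, with genes as the points, which share libraries and are not replicates), and 7 of the 9 members have a GC content of 54.8% to 62.7%. Values with the GC and length trend removed are therefore printed beside each of the 8 tested members.

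7 members lie in the MHC region of chromosome 6 in the GENCODE annotation of GRCh38: HLA-F (29722775 to 29738528, plus strand), HLA-E (30489467 to 30494205, plus), HLA-C (31268749 to 31272130, minus), HLA-B (31269491 to 31357188, minus), TAP2 (32821833 to 32838780, minus), TAP1 (32845209 to 32853978, minus) and TAPBP (33299694 to 33314387, minus). B2M is on chromosome 15 (44711487 to 44718877, plus) and NLRC5 on chromosome 16 (56989485 to 57083531, plus). All are protein-coding. The promoters of HLA-B, HLA-C and B2M are shown because the HLA-B and HLA-C promoters are close copies while the levels of these genes differed to unlike degrees, and because B2M, on another chromosome, encodes the chain that pairs with every heavy chain. Each sequence is the 250 bases before the RefSeq start on GRCh38.p14, written 5′ to 3′ in the direction of the gene, and the capitals mark the motif matches named below. HLA-B is chr6:31357180-31357429 (minus strand), HLA-C chr6:31272093-31272342 (minus) and B2M chr15:44711267-44711516 (plus).
HLA-B: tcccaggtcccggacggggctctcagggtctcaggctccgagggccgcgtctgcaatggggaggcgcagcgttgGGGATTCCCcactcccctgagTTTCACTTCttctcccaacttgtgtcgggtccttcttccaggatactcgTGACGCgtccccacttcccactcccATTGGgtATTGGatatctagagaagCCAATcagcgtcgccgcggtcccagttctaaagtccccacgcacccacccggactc
HLA-C: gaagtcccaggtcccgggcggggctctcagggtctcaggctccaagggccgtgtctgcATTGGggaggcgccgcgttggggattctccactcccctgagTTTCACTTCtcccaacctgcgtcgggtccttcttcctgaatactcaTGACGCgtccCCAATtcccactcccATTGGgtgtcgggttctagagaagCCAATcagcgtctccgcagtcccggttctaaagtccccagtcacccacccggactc
B2M: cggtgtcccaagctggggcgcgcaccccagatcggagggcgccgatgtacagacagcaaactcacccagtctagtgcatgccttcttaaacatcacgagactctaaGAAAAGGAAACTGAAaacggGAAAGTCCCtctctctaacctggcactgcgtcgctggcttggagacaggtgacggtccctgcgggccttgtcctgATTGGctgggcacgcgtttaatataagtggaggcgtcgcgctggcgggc

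The motifs searched, on both strands, were 2 forms of the interferon-stimulated response element, GAAANNGAA (long) and GAANNGAAA (short), 9-base cores of 2 kappa B forms bound by NF-kappa-B, GGGATTCCC and GGGACTTTC, the CCAAT core of the Y box, the TGACGC core of the X2 box, and the GAS element TTCNNNGAA. The 2 response element forms can overlap each other. Of all 35093 RefSeq promoter windows, 6.88% hold GAAANNGAA, 6.56% GAANNGAAA, 12.4% either form, 0.359% GGGATTCCC, 0.325% GGGACTTTC, 31.998% CCAAT, 7.66% TGACGC and 6.57% TTCNNNGAA. A match is a description of the letters and not a shown binding site. The promoter table held 7 of the 9 members, with 2 starts for TAP1. HLA-E and NLRC5 had no entry.

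Every one of the 7 genes had a response element form in at least 1 window. The motifs were chosen with these sequences in view, so nothing is read from the matches against the shares of all promoters. HLA-B and HLA-C carried the short form on the minus strand, 155 to 147 and 151 to 143 bases before the start, and both carried TGACGC followed by CCAAT on either strand, the order of the X2 and Y boxes. In the kappa B site the 2 genes differed. HLA-B holds GGGATTCCC 176 to 168 bases before its start, and the closest window of HLA-C, 172 to 164 bases before its start, differs from it by C8T, counted from 1 at the 5′ end of the site. Over 246 aligned bases the 2 promoters were identical at 91.9%. B2M and the upstream TAP1 window hold the other kappa B form, GGGACTTTC, and 2 overlapping long response elements each. TAPBP holds 2 overlapping long elements 20 to 6 bases before its start, and TAP2 a short and a long one 63 to 50 bases before. The TAPBP window closest to GGGATTCCC, 55 to 47 bases before its start, differs by C7T, so by 1 base as in HLA-C. HLA-F holds 1 long element and 2 CCAAT matches, and no TGACGC. These are reference sequences. The alleles of the sequenced cells were not analysed here. Whether any difference between the promoters bears on the levels of the genes was not tested.

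**Figure D1:**
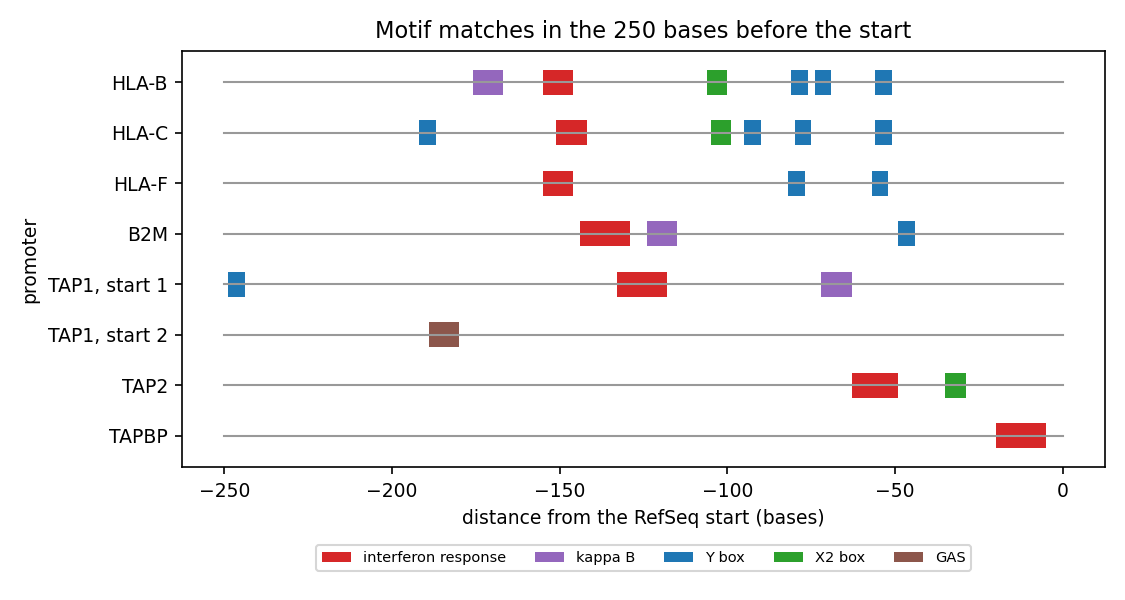
Positions of motif matches (coloured boxes) in the 250 bases before each RefSeq start, in bases from the start on the x axis, with 1 line per promoter and 2 for TAP1. The response element and the X2 box of HLA-B and HLA-C lie at nearly the same distances, HLA-B has 3 CCAAT matches and HLA-C 4, and only HLA-B of the pair has a kappa B match.

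HLA-B, a classical heavy chain that presents peptides to cytotoxic T cells, had the largest difference of the members. It stood at 15.3 and 16.0 FPKM in shCtrl, against 29.6 and 28.6 in shNME7. Both knockdown values were above both control values, and within each group the libraries were close together. The means were 15.6 ± 0.429 and 29.1 ± 0.688 FPKM (SD, n = 2), a level 1.86-fold higher in shNME7. The fragments behind these values were 745, 785, 1356 and 1482, with exact Poisson 95% intervals of 692 to 800, 731 to 842, 1285 to 1430 and 1407 to 1559, which cover counting error only. On the log2(FPKM + 1) scale, which understates the change of low genes, the difference was 0.85 (SE 0.13), above that of 99.4% of tested genes. With the GC and length trend removed it was 0.72 (SE 0.14), and over 12 alternative analyses it ran from 0.72 to 0.89. Some of these 12, such as the replicate block, leave the difference of every member unchanged by construction. The difference of HLA-B is the value that led to the choice of the set.

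HLA-C, the other classical heavy chain of the set and also a ligand of natural killer cell receptors, was the most abundant heavy chain. It stood at 70.3 and 49.5 FPKM in the controls, against 70.1 and 76.7 in the knockdown libraries. The groups overlapped, because shCtrl 1 lay between the 2 shNME7 libraries. The means were 59.9 ± 14.7 and 73.4 ± 4.69 FPKM (SD, n = 2), a log2 difference of 0.31 (SE 0.20). Without shCtrl 2, the lowest library, the difference was 0.06, and without shCtrl 1 it was 0.56. With the GC and length trend removed it was 0.14, and the median difference of the 1286 tested genes of nearest GC content, among 10 equal groups, was 0.18.

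HLA-E, a less variable heavy chain that shows peptides from the signal sequences of other class I chains to natural killer cells, stood at 39.2 and 33.2 FPKM in shCtrl, against 42.2 and 45.1 in shNME7. The groups did not overlap, with shNME7 higher, but the gap between shCtrl 1 and shNME7 1 was smaller than that between the 2 control libraries. The log2 difference was 0.26 (SE 0.15), and 0.17 with the GC and length trend removed. It was 0.15 without shCtrl 2.

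HLA-F, a heavy chain that can reach the surface without peptide, was near 0. It had 5 and 1 fragments in shCtrl and 2 and 4 in shNME7, at most 0.0724 FPKM, around the 3 fragments that a count of 0 allows. No difference between the groups was detectable at this depth, and HLA-F is the member left out of the tested genes.

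The share of HLA-B among the heavy chain fragments was higher in shNME7. It restates the HLA-B values that chose the set and is not a second result. HLA-B was 1.86-fold higher in the mean, beside 1.23-fold for HLA-C and 1.20-fold for HLA-E. Of the fragments of HLA-B, HLA-C and HLA-E together, HLA-B held 13.8% (745 of 5407, exact Clopper-Pearson 95% interval 12.9% to 14.7%) in shCtrl 1 and 17.9% (785 of 4383, 16.8% to 19.1%) in shCtrl 2. It held 23.1% (1356 of 5882, 21.98% to 24.2%) in shNME7 1 and 21.1% (1482 of 7027, 20.1% to 22.1%) in shNME7 2. The shares of the groups did not overlap, but the control libraries also differed from each other by more than counting error. HLA-C held 45.7% to 51.9% in shCtrl and 44.9% to 46.5% in shNME7. The share of HLA-E was 34.4% and 36.4% in shCtrl and 32.05% and 32.4% in shNME7.

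Reads of class I genes can be shared between loci. In the GENCODE transcripts, 2.72% of the 50-base windows of HLA-B, 5.38% of HLA-C, 4.34% of HLA-E and 0.977% of HLA-F also occur in transcripts of another gene. Of 100-base windows the shares were 0% for HLA-B and HLA-F, 0.126% for HLA-C and 0.491% for HLA-E. HLA-B and HLA-C shared 81 of the 50-base windows. The annotated HLA-B gene reaches into HLA-C, with 35 exonic bases in common, and 542 of its 3051 exonic bases lie under a pseudogene on the opposite strand, AL671883.2, that was at 0 in all libraries. The read length, the treatment of reads with several matches and the fit of the cells' own alleles to the reference were not stated in the labels, and their part in the HLA values was not tested.

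B2M, the light chain of every class I molecule, was the most abundant member, at 132 and 139 FPKM in the controls, against 171 and 161 in the knockdown libraries. Both shNME7 libraries lay above both controls, and the gap between the groups was wider than that between the replicates. The means were 136 ± 4.92 and 166 ± 7.06 FPKM (SD, n = 2), a level 1.23-fold higher, with a log2 difference of 0.29 (SE 0.14). B2M has a GC content of only 40.6%, and the median difference of tested genes in its group of GC content was -0.10. With the GC and length trend removed its difference was 0.38 in limma-trend and 0.41 in limma-voom, so it is the member whose difference grew with that step by more than the replicate SD. The ratio of B2M to the summed FPKM of HLA-B, HLA-C and HLA-E was 1.06 and 1.41 in shCtrl and 1.21 and 1.07 in shNME7, which overlapped.

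**Figure D2:**
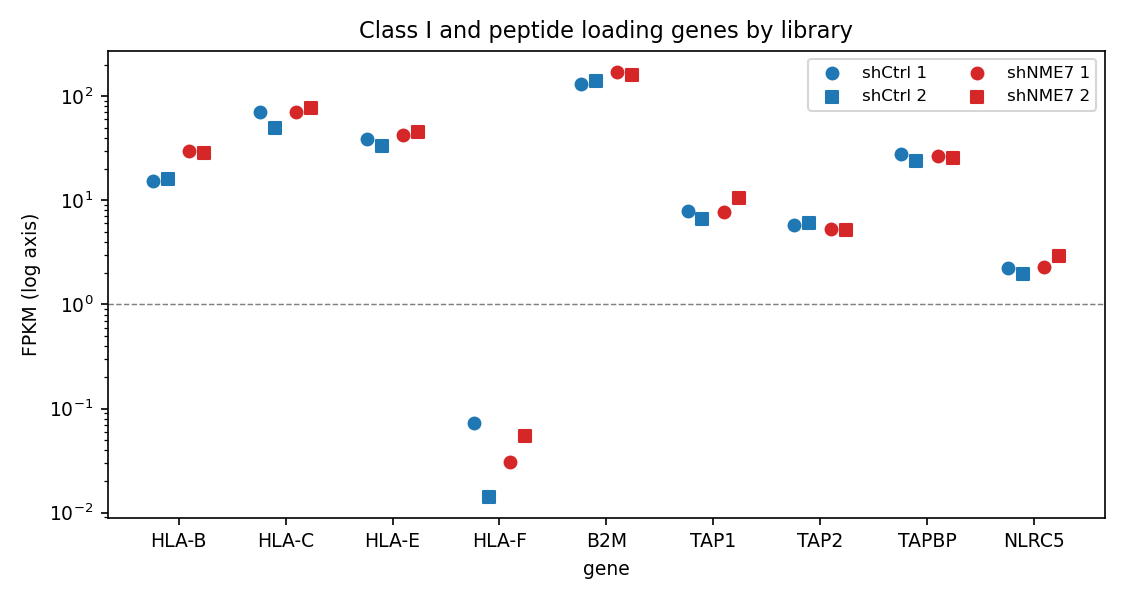
FPKM of the 9 genes (log axis) in shCtrl 1 and 2 (blue) and shNME7 1 and 2 (red), 1 point per library, with the dashed line at 1 FPKM. HLA-B separates most clearly, at 15.3 and 16.0 against 29.6 and 28.6 FPKM, while HLA-F lies below 0.1 in every library.

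TAP1 and TAP2 form the peptide transporter as a pair, yet they lay in opposite directions. TAP1 stood at 7.91 and 6.59 FPKM in shCtrl, against 7.73 and 10.5 in shNME7. Its groups overlapped, since shNME7 1 lay between the controls and only shNME7 2 was high. The log2 difference was 0.29 (SE 0.18), 0.20 with the GC and length trend removed, and 0.09 without shNME7 2. On the opposite strand PSMB8-AS1, with 4, 1, 11 and 4 fragments, covers 9.49% of the exonic bases of TAP1. TAP2 stood at 5.75 and 6.03 FPKM in the controls, against 5.36 and 5.14 in the knockdown libraries. Both shNME7 libraries lay below both controls, a log2 difference of -0.14 (SE 0.13) that ran from -0.18 to -0.11 over 12 alternatives and was -0.12 with the GC and length trend removed. The ratio of TAP1 to TAP2 was 1.38 and 1.09 in shCtrl and 1.44 and 2.04 in shNME7. Of the exonic bases of TAP2, 32.3% also belong to AL669918.1, a gene model on the same strand with 0, 1, 0 and 0 fragments, so reads of that stretch may be missing from TAP2 and its level relative to TAP1 is uncertain.

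TAPBP, which encodes tapasin, stood at 27.8 and 23.7 FPKM in shCtrl, against 26.5 and 25.7 in shNME7. Both shNME7 values lay between the controls. The log2 difference was 0.02 (SE 0.14), and its sign turned in 4 of 12 alternatives, among them removal of the GC and length trend (-0.07).

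NLRC5, the activator that binds class I promoters through the SXY module, was low, at 2.24 and 1.97 FPKM in the controls, against 2.29 and 2.91 in the knockdown libraries. The shNME7 libraries lay above the controls, shNME7 1 by less than the distance between the 2 controls. The fragments were 442, 393, 426 and 612, so that shNME7 1 had fewer fragments than shCtrl 1 and lay above it only after scaling for library size. The log2 difference was 0.21 (SE 0.17), 0.18 with the GC and length trend removed, and 0.08 without shNME7 2.

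In level per length, the members ran in the same order in both groups apart from 1 exchange: B2M, HLA-C, HLA-E, then TAPBP and HLA-B, then TAP1, TAP2, NLRC5 and HLA-F. TAPBP was above HLA-B in shCtrl, at 23.7 to 27.8 against 15.3 to 16.0 FPKM. In shNME7 HLA-B was above TAPBP, at 28.6 to 29.6 against 25.7 to 26.5 FPKM. No 2 neighbours in the order overlapped between their libraries within a group.

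Counted over the set, both shNME7 libraries lay above both controls for 4 of 9 members (HLA-B, HLA-E, B2M and NLRC5), where 17.8% of tested genes did so, and below for 1 (TAP2), where 18.4% did. The other 4 overlapped. Of the 8 members with a mean of at least 1 FPKM, 7 had a higher mean in shNME7, as did 52.2% of tested genes. Since the comparison chose the set, nothing is read from these counts. The count above changed when shCtrl 1 or shNME7 1 was left out. A lone library is easier to lie apart from, and no share of all tested genes was computed for that case. The median log2 difference of the 8 members above 1 FPKM was 0.27, against 0.01 over all tested genes, and it was 0.17 with the GC and length trend removed. It was 0.15 without shCtrl 2 and also without shNME7 2. Over all genes, limma-trend called 0 genes higher (0%) and 0 lower (0%) at an adjusted p under 0.05, with 859 at an unadjusted p under 0.05, and so 0 members. limma-voom on recovered fragments called 0.0132% of 15112 genes higher and 0.0926% lower, also with 0 members among them. Nothing about the members is read from either 0, since the comparison chose them and limma-trend called no gene at all.

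**Figure D3:**
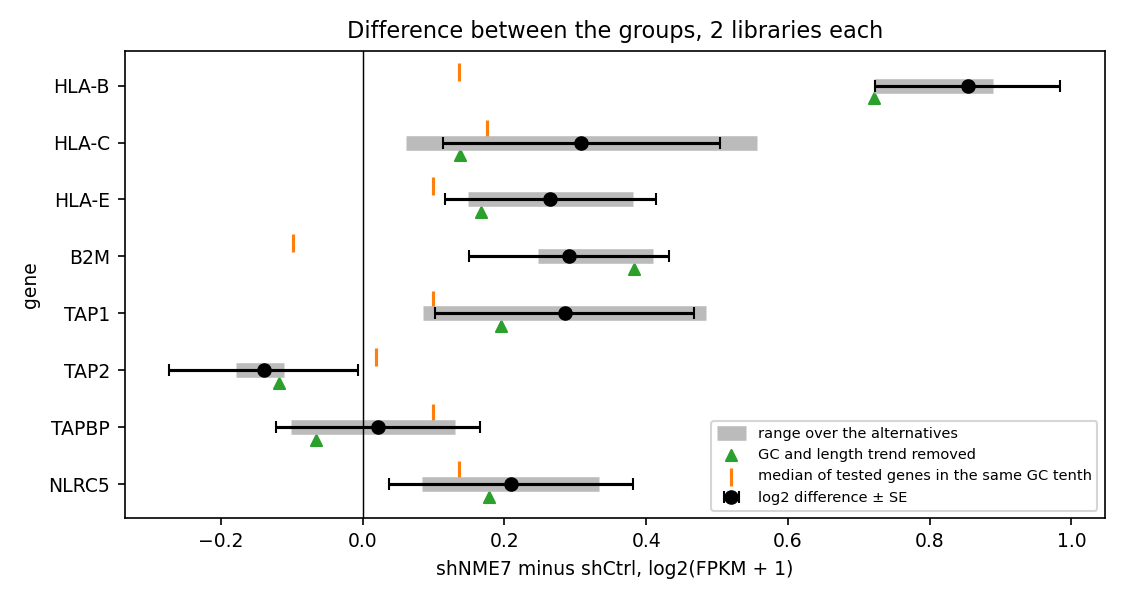
Log2 difference between shNME7 and shCtrl with its SE (black), its range over 12 alternatives (grey bar), the value with the GC and length trend removed (green triangle) and the median of tested genes in the same of 10 GC groups (orange tick), for the 8 tested members. HLA-B stands at 0.85 and the others between -0.14 and 0.31.

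**Figure D4:**
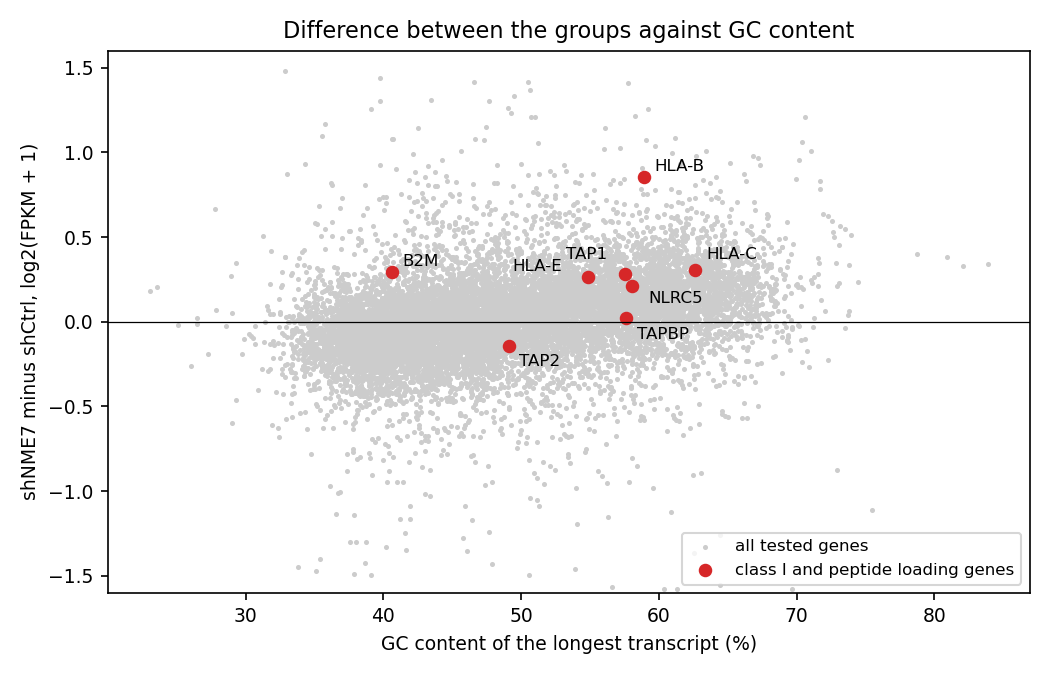
Log2 difference between shNME7 and shCtrl against the GC content of the longest transcript, for tested genes with a GC value (grey) and the class I members (red). 15 genes lie outside the y axis. Differences tend upward with GC content, and HLA-B and B2M lie above the bulk of genes of like GC content.

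The rest of the class I pathway was followed through 8 lists with 73 genes, of which 52 were tested. In limma-trend 0 of them rose and 0 fell (adjusted p of at least 0.728), 4 had an unadjusted p under 0.05, and limma-voom called 0. Of the 52, 25 had a higher and 27 a lower mean in shNME7, where 52.2% of all tested genes had a higher one. Without overlap 13 lay above and 12 below, where 17.8% and 18.4% of all tested genes did. Their median log2 difference was -0.02, beside 0.01 over all tested genes.

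Genes of peptide supply and the standard proteasome lay mostly on the high side. All 4 standard proteasome genes had a higher mean, and 1 of them lay above without overlap, where 17.8% of all tested genes did. Their median difference was 0.19, 0.13 with the GC and length trend removed, 0.05 without shNME7 2 and 0.34 without shNME7 1. Of the supply genes, 5 of 7 tested had a higher mean (52.2% of all tested genes) and 4 lay above without overlap (17.8%), with a median difference of 0.22 (0.16 with the GC and length trend removed). PSME2, a subunit of the interferon-inducible PA28 activator of the proteasome, stood at 20.6 and 16.9 FPKM in shCtrl, against 24.2 and 25.5 in shNME7, a log2 difference of 0.39 (SE 0.15, limma-trend adjusted p 0.730). Its partner PSME1 stood at 48.8 and 47.0 against 53.2 and 63.2 FPKM, with the higher value again in shNME7 2. The immunoproteasome subunits, which interferon gamma swaps into the proteasome, were low. PSMB8 stood at 0.147 and 0.207 against 0.488 and 0.255 FPKM, and PSMB9 at 0.327 and 0.202 against 0.152 and 0.192. PSMB10, the third subunit, stood at 1.93 and 1.37 against 1.51 and 2.57 FPKM, and its groups overlapped. PSMB9 neighbours TAP1 and is annotated as running across it on the opposite strand without shared exons, and its value in shNME7 2, 10 fragments, was not the highest of the 4. Of the standard subunits, PSMB5 stood at 96.8 and 83.2 against 101 and 134 FPKM. ERAP1, which trims peptides inside the endoplasmic reticulum, stood at 1.40 and 1.59 against 2.19 and 1.65 FPKM, and its relative ERAP2 was under 0.16 FPKM in each library.

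Chaperones that fold the heavy chain showed no common direction, with 2 of 6 tested genes higher and a median difference of -0.07, which ran from -0.18 without shCtrl 1 to -0.01 without shCtrl 2. CANX, the calnexin gene, whose product holds new heavy chains, stood at 207 and 255 FPKM in the controls, against 203 and 167 in the knockdown libraries (log2 difference -0.32, SE 0.18, limma-trend adjusted p 0.795). CALR, the calreticulin gene of the loading complex, stood at 232 and 216 against 212 and 239 FPKM. TAPBPL, the peptide editor related to tapasin, was below 1 FPKM in each library.

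The other class I-like genes were divided. MICA and MICB, stress ligands of the natural killer receptor NKG2D encoded near HLA-B, stood at 34.2 and 34.9 against 38.5 and 44.7 FPKM, and at 20.5 and 17.9 against 23.8 and 20.7. ULBP1 and ULBP2, ligands of the same receptor encoded outside the MHC, pointed the other way. ULBP1 stood at 1.68 and 1.38 FPKM in shCtrl, against 0.847 and 0.450 in shNME7, a log2 difference of -0.63 (SE 0.22, limma-trend adjusted p 0.728), and ULBP2 at 3.31 and 2.62 against 2.27 and 2.44. HLA-G was listed at 0 in all 4 libraries.

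Factors that bind the SXY module together with NLRC5 were mostly lower, 6 of 8, with 4 below without overlap, where 18.4% of all tested genes were, and a median difference of -0.13. That median was -0.07 with the GC and length trend removed, -0.04 with it removed in limma-voom, and -0.07 without shNME7 2. RFXAP stood at 6.57 and 6.80 FPKM in the controls, against 5.05 and 4.90 in the knockdown libraries (log2 difference -0.36, SE 0.13, limma-trend adjusted p 0.729), and CREB1 at 2.76 and 2.72 against 2.42 and 1.94. RFXANK, another subunit of the RFX complex, stood higher, at 13.0 and 10.2 against 13.1 and 16.1 FPKM.

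Among interferon and NF-kappa-B regulators, 7 of 12 tested genes had a higher mean, with a median difference of 0.06, which was -0.04 without shNME7 1 and 0.11 without shCtrl 1. IRF1, which binds the response element of class I promoters, stood at 1.34 and 1.22 FPKM in shCtrl, against 1.44 and 1.69 in shNME7. NFKB1, which encodes the p50 subunit that binds kappa B sites, was on the low side, at 8.37 and 8.28 against 6.51 and 6.49 FPKM (log2 difference -0.31, SE 0.13, limma-trend adjusted p 0.746), and its partner RELA stood at 17.01 and 15.01 against 16.8 and 16.5. The receptor gene IFNGR1 stood at 10.5 and 12.0 against 9.50 and 9.11 FPKM.

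Genes of class I silencing and removal had 2 of 8 with a higher mean and a median difference of -0.04. It was -0.15 without shCtrl 2, -0.14 without shNME7 2, -0.01 without shCtrl 1, and -0.09 with the GC and length trend removed. EZH2, the methyltransferase of the polycomb complex that can silence class I genes, stood at 17.7 and 19.2 FPKM in the controls, against 15.4 and 13.3 in the knockdown libraries (log2 difference -0.34, SE 0.14, limma-trend adjusted p 0.748), and its partner SUZ12 at 27.4 and 30.9 against 26.3 and 21.2. EED, of the same complex, stood at 4.69 and 5.11 against 5.31 and 4.72 FPKM, with overlapping groups and a log2 difference of 0.03. SUSD6, whose product sends class I molecules to degradation, stood at 3.85 and 3.64 against 3.70 and 3.57. The class II genes, which professional antigen-presenting cells express, were low or at 0. HLA-DRA, HLA-DRB1, HLA-DPA1, HLA-DPB1, HLA-DQA1 and HLA-DQB1 were listed at 0 in all 4 libraries, and CIITA, the class II counterpart of NLRC5, was at most 0.0993 FPKM. HLA-DMA, a chain of the class II peptide editor, was the tested gene of that list, at 0.843 and 0.881 against 1.44 and 0.999 FPKM, with both shNME7 libraries above both controls (log2 difference 0.25, SE 0.20, limma-trend adjusted p 0.836).

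**Figure D5:**
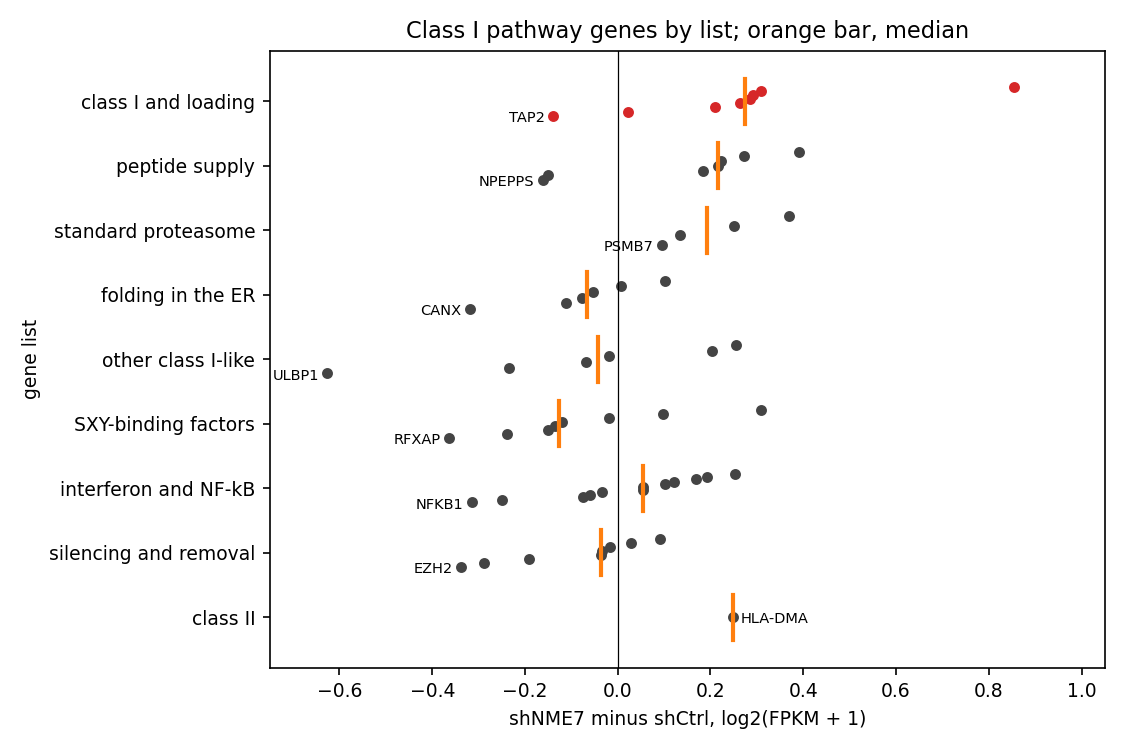
Log2 difference between shNME7 and shCtrl of each tested gene (points) by list, with the list's median (orange bar) and the lowest gene named. Peptide supply and the standard proteasome lie mostly to the right, and the SXY-binding factors mostly to the left.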

How the data were processed

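The values are FPKM for 58735 genes, as the authors deposited them, with the unit taken per the file headers. The submitters' processing notes list HISAT2 2.0.5 and genome build hg18. No counting tool, annotation or filter was named in them. Every gene ID was found in GENCODE 29, on GRCh38, which gave names, coordinates, exon lengths and transcript sequences; no hg18 coordinate was used. FPKM times exon length gave whole fragments for 100% of values above 0 (within 0.01). The deposited values thus go with the exon lengths of this annotation on GRCh38, which is at odds with the listed hg18. No 2 libraries agreed within sampling noise (chi-square per degree of freedom 12.5 to 38.9).

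Differences come from limma-trend (limma 3.58.1, R 4.3.3) on log2(FPKM + 1) for the 12866 genes with a mean of at least 1 FPKM, two-sided, with Benjamini-Hochberg adjustment and a threshold of 0.05. The spread behind these p-values is that between the 4 libraries, and it may be technical. Alternatives were a pseudocount of 0.1, no filter, the replicate block, each library left out, limma-voom on fragments (mean of at least 10), a loess trend on GC content and length removed (span 0.3), a restriction to protein-coding genes, and a crossed pairing of replicate numbers. The tests were also run on simulated data with independent noise per gene and no GC trend. These libraries do have such a trend, so that run does not show how the tests perform on them. The members and lists were chosen with earlier results of these data known. Named genes are the members, NME7, genes of the lists, expressed or defining markers, genes overlapping a member and the 5 genes closest in profile to HLA-B. Promoters are from RefSeq (GRCh38.p14). Motifs were chosen with the sequences in view, and 3 of them were searched first as 10-base forms and are given as 9-base cores. Of the list genes, 1 is counted but not reported here by name.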

Additional observations from a re-analysis of the deposited data

How the results depend on the processing

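Limma-trend called 0 genes higher and 0 lower. With the replicate block it called 59 and 63, with the GC and length trend removed 0 and 1, and over protein-coding genes 1 and 10. limma-voom called 2 and 14, or 1 and 11 with the trend removed. With 1 library left out, 51 to 410 were called higher and 49 to 222 lower, the lone library being assumed to vary like the other group. The labels do not say whether same-numbered libraries were made or run together. Their deviations from the group means had a correlation of -0.35 over genes, which cannot settle that. A crossed pairing, added after seeing the data, called 0 and 0. The members' median of 0.27 became 0.17 with the GC and length trend removed and 0.18 with it removed in limma-voom, and ran from 0.15 to 0.33 with 1 library left out. Members above without overlap then numbered 4 to 8. Tested members on the high side numbered 6 or 7 in each of 12 alternatives. Of 204 values of single genes and lists under these alternatives, 190 moved by less than the replicate SD and 14 by more. Much of this tally was fixed in advance. The 2 pairings, the missing filter and the protein-coding restriction leave these differences unchanged by construction. For a single gene, leaving 1 library out cannot move the difference by more than the replicate SD. The 190 is therefore no measure of robustness. The causes were not tested. Depth limits HLA-F, at 1 to 5 fragments.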

Other observations

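The neighbourhood of the class I genes also lay on the high side. Between the start of HLA-F and the end of TAPBP on chromosome 6 (29722775 to 33314387, GRCh38), 88 tested genes are not members of the set. Of these, 66 had a higher mean in shNME7. Both shNME7 libraries lay above both controls for 35 of them (39.8%, against 17.8% of all tested genes) and below for 5 (5.68%, against 18.4%). Their median log2 difference was 0.14, and 0.04 with the GC and length trend removed. The median GC content was 54.4% in the region and 48.1% over all tested genes. Neighbouring genes are not independent, and the part of GC content in this was not tested beyond that step.

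The genes whose profile over the 4 libraries was closest to that of HLA-B, by root mean square distance of centred log2(FPKM + 1) among 7675 genes with a mean of at least 5 FPKM, were NDUFB8, AC115618.3, RNU6-850P, NEDD8 and SNORA71C, at distances of 0.08 to 0.12. NDUFB8, a subunit of respiratory complex I, stood at 4.53 and 4.12 FPKM in shCtrl, against 7.99 and 7.92 in shNME7. NEDD8, a ubiquitin-like protein, stood at 11.1 and 11.1 against 17.5 and 20.2 FPKM. No other member of the class I set was among the 5. The distance counts the size of a difference, so this follows from values already given. HLA-B differed by 0.85 and the other tested members by -0.14 to 0.31. HLA-F and NLRC5, with means under 5 FPKM, were not ranked.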
